A study of Mus musculus with 24 samples.

Results

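The cytosolic ribosomal protein genes encode the protein part of the ribosomes that translate nuclear messenger RNAs, and their expression was examined in dorsal root ganglia (DRGs) of Nfil3 knockout (KO) and wildtype (WT) mice after a sciatic nerve lesion. Members were all genes named Rpl or Rps followed by a digit on the array, together with Rplp0, Rplp1, Rplp2 and Rpsa, without the Rps6k kinases and without pseudogene names. This gave 85 of 27398 gene names, measured by 142 of 41174 probes, with 51 names of the large 60S subunit and 34 of the small 40S subunit. One member, Rps19bp1, meets the naming rule but encodes a nucleolar protein that binds RPS19 and is not itself a ribosomal protein. The RNA came from L4 and L5 DRGs of adult male C57BL/6J mice in 6 groups of 4 samples, which were WT control, WT day 2, WT day 5, KO control, KO day 2 and KO day 5. In all mice the sciatic nerve had been transected and its ends coaptated, and DRGs were taken from the injured side at day 2 or day 5, while control DRGs came from the uninjured side of operated mice and not from naive animals. KO mice were Nfil3 null, made by crossing mice with a floxed Nfil3 allele to mice expressing Cre recombinase under a human CMV promoter, so the deletion was not limited to neurons, and WT mice were littermates. The labels name the tissue DRG neurons, but whole ganglia were dissected. For KO control replicate 4, 1 label field gives day 5 where its title and source name give Day0, and it was kept as control. Separate animals are not stated per sample beyond independent replicates, so p-values measure the spread between these samples. A control and a lesion sample may come from the same mouse. The labels allow no pairing by animal, and all samples were tested as unpaired.

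The ribosome joins a small subunit, which reads the messenger RNA, to a large subunit, which forms the peptide bond, and most ribosomal proteins are needed for a complete particle. The messenger RNAs of these proteins start with a short pyrimidine stretch, the terminal oligopyrimidine (TOP) motif, through which growth signals such as mTOR set their translation together. Sensory neurons are rich in ribosomes, which appear as Nissl substance in the cell body, and an axon lesion is known to disperse this substance while the cell shifts to a growth state. NFIL3, the deleted factor, is a basic leucine zipper repressor of transcription.

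Promoters were read to show what these genes share in sequence. All 85 names matched a mouse gene in RefSeq, and 64 had a promoter entry from 250 bases before to 50 bases after the start (GRCm38.p6). The windows below run from 60 bases before to 20 bases after the start, 5′ to 3′, with the longest run of C and T near the start in capitals, for members with large lesion changes (Rpl35, Rpl31, Rps3, Rpl18 and Rpl12), for the reference genes Rps18 and Rpl27, and for the paralogs Rps27 and Rps27l, of which Rps27l has 2 entries.
Rpl35 (chr2:39005112-39005191, minus strand): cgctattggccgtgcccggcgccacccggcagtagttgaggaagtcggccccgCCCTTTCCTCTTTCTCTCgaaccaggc
Rpl31 (chr1:39367791-39367870, plus strand): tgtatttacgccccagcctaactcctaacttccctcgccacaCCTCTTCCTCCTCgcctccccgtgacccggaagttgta
Rps3 (chr7:99483690-99483769, minus strand): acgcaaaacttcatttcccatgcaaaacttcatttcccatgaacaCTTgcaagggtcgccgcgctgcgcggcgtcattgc
Rpl18 (chr7:45718011-45718090, plus strand): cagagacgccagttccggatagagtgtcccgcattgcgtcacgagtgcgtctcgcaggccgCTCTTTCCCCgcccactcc
Rpl12 (chr2:32961652-32961731, plus strand): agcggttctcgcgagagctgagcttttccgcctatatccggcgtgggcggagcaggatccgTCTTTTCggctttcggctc
Rps18 (chr17:33955646-33955725, minus strand): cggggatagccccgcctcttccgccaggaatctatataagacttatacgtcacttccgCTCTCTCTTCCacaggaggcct
Rpl27 (chr11:101442185-101442264, plus strand): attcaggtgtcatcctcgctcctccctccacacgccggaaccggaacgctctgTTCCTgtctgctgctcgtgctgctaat
Rps27 (chr3:90213629-90213708, minus strand): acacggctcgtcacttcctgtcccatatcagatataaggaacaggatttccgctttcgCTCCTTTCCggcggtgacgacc
Rps27l (chr9:66946026-66946105, plus strand): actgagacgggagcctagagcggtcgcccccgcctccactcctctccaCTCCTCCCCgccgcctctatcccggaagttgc
Rps27l (chr9:66946353-66946432, plus strand): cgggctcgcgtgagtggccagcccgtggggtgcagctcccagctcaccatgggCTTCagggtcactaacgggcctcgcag
The run was 18 bases in Rpl35 and 13 in Rpl31 but 3 in Rps3, 5 in Rpl27 and 4 in the second entry of Rps27l, so it differed widely among these members. It was sought on both sides of the annotated start and is not a mapped TOP motif. In Rpl31, Rps3, Rpl27 and both entries of Rps27l it lay wholly before that start, outside the transcript as annotated. A run of at least 8 pyrimidines within 20 bases on either side of the start was present in 30 of the 64 members (46.9%) and in 18.3% of 17492 protein-coding genes with an entry. The median longest run was 7 bases in members and 5 bases in all genes. The letters CCGGAA, on either strand, which form the core of sites bound by ETS factors such as GABPA, occurred in 35 of 64 members (54.7%) and in 20.9% of all genes. Letters of an NFIL3 site, TTACGTAA or TTATGTAA, were found in 1 of 64 members (1.56%), the dim testis paralog Rpl39l, and in 1.19% of all genes, whereas the CREB letters TGACGTCA were found in 5 members (7.81%) and 2.54% of all genes. Split by the lesion test, the ETS letters were in 16 of 31 members called at either day and 19 of 33 others, pyrimidine runs of at least 8 bases in 18 and 12, the CREB letters in 4 and 1, the E-box letters CACGTG in 1 and 5, the YY1 letters AAGATGGC in 1 and 5, the GC-box letters GGGCGG in 22 and 18, and the letters TATAAA in 5 and 2. These splits are given without a test. Of all genes with an entry, 8.91% held CACGTG, 3.57% AAGATGGC, 49.2% GGGCGG and 14.8% TATAAA, each on either strand, against 9.38%, 9.38%, 62.5% and 10.9% of the 64 members. A match here is only a match of letters in this window.

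Values are log2 intensities after Edwards background correction and quantile normalization of 24 single channels, and a value of one probe cannot be set against that of another. Each gene is given by its brightest probe unless stated. The members were among the brightest features of the arrays, with 75 of 85 in the brightest 5% of gene names. In all 24 samples 83 genes were well above background and no member spot was saturated, which leaves Rpl3l, a muscle paralog of Rpl3 (well above background in 5 of 24 samples), and Rpl39l (1 of 24) without a measured level in most samples. Across the 24 samples 54.5% to 72.3% of spots were well above background. The spread of members was small, with a median within-group SD of 0.12 for the 83 genes and 0.18 for 14471 other names above background. Nfil3 itself lay between 8.44 and 11.08 in the 12 WT samples and between 2.82 and 7.59 in the 12 KO samples, of which 5 were well above background, so the groups followed their genotype labels without overlap. All 15 sensory neuron markers on the array, among them Calca and the neurofilament gene Nefl, were well above background in every sample, and so were all 16 macrophage and all 8 satellite glia markers, so the samples hold several cell types.

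Over the 83 genes above background, each sample was summarized by the median deviation of the members from their own means. Control samples lay between -0.21 and -0.03, with group means of -0.10 ± 0.05 (SD, n = 4) in WT and -0.11 ± 0.08 (SD, n = 4) in KO. Day 2 samples had means of 0.03 ± 0.07 in WT and 0.09 ± 0.12 in KO, and day 5 samples 0.05 ± 0.01 in WT and 0.04 ± 0.04 in KO (SD, n = 4 each). All 8 control samples were below 0, and of the lesion samples WT day 2 replicate 1 (-0.08) and KO day 5 replicate 3 (40 of 83 members above their mean) were not above it. One sample stood apart, since KO day 2 replicate 1 had a median deviation of 0.27 with 82 of 83 members above their mean, against 0.02 to 0.06 in the other KO day 2 samples. WT day 2 replicate 3, which shared an array with it in the other dye, was the highest of its group (0.10). Day 2 results are therefore also given without KO day 2 replicate 1. Within each of the 3 slides, the median lesion change of the members was above 0 at both days, from 0.12 to 0.18. These rest on few samples, with 1 day 2 sample on slide 1 and 2 controls on slide 2. The 0.18, of slide 2 at day 2, includes KO day 2 replicate 1.

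**Figure D1:**
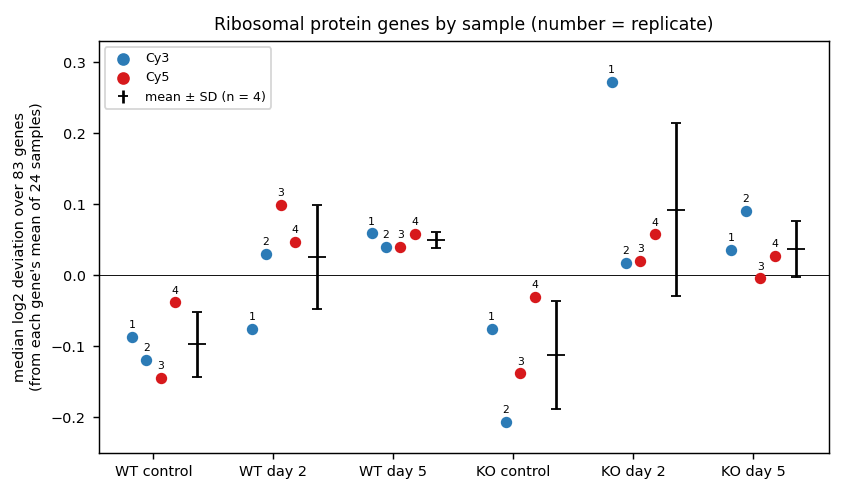
Median log2 deviation of 83 ribosomal protein genes in each of 24 samples (y axis) by group (x axis), with blue points for Cy3, red for Cy5, replicate numbers above the points, and the mean ± SD of 4 samples beside them. All 8 control samples lie below 0, and KO day 2 replicate 1 is the highest sample at 0.27.

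To ask how the lesion changed the ribosomal protein genes, lesion and control samples were compared as the mean of the WT and KO changes (limma, Benjamini-Hochberg adjusted p below 0.05 over all 41174 probes). At day 2, 25 of 85 genes were higher (29.4%) and 0 lower, and at day 5, 28 were higher (32.9%) and 0 lower. Over all gene names 9.39% were called higher at day 2 and 10.2% at day 5, and 12.9% and 13% were called lower. Among 14554 names well above background in every sample these shares were 14.2% and 15.4% higher, and 21.1% and 21.9% lower. The median change of the members was 0.15 at day 2 and 0.13 at day 5 on the log2 scale, or 1.11-fold and 1.095-fold, where the median of all gene names was -0.02 and -0.03. In these whole ganglia, more or fewer cells of a type and more or less RNA per cell cannot be told apart. Of the 85 genes, 80 had a positive change at each day and 78 at both. In the brightest 5% of gene names, 73 of 75 members and 572 of 1295 others were positive at day 2. At day 5 these were 71 and 584. Members shifted together within a sample, with 82 of 83 above their mean in KO day 2 replicate 1, so the genes are not separate observations of direction. Calls were made at both days for 17 genes, at day 2 alone for 8, at day 5 alone for 11 and at neither for 49. The matching shares of all gene names were not computed. At an unadjusted p below 0.05, 46 members passed at day 2 and 43 at day 5, where 32.4% and 31.5% of all gene names did. Without KO day 2 replicate 1, 17 of the 25 day 2 calls were kept, the 8 lost including Rpl39, Rpl4, Rps13, Rps19, Rps19bp1, Rps28 and Rpsa, and the median change was 0.12. In that fit 8.33% of all gene names were called higher at day 2. Without KO control replicate 4, whose labels disagree, 28 were called at day 2 and 26 at day 5, where 9% and 9.9% of all gene names were higher. With each channel scaled to its median in place of quantile normalization, 9 members passed at day 2 and 8 at day 5, at medians of 0.19 and 0.17. That scaling called 7.08% and 7.44% of all gene names higher. Since the day 2 and day 5 changes share their control samples, their likeness is no separate result.

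**Figure D2:**
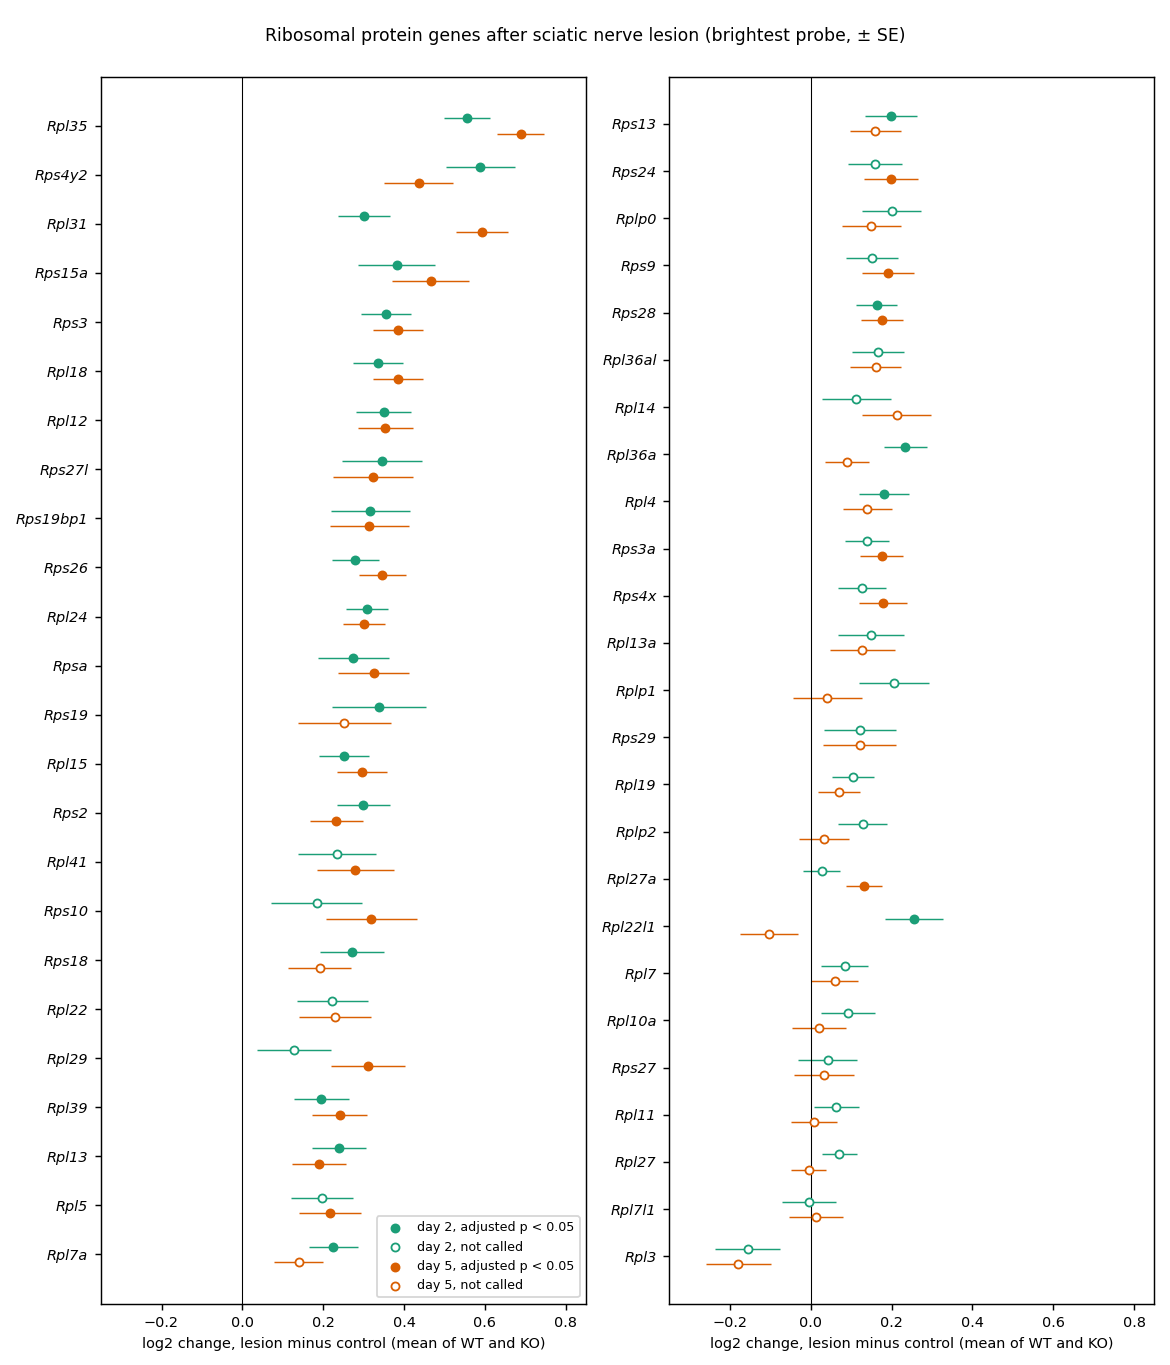
Log2 change after the lesion (x axis, mean of WT and KO, bars ± SE) of the 49 ribosomal protein genes above background that the text names (y axis, ordered by mean change), green for day 2 and orange for day 5, filled where the adjusted p was below 0.05. Rpl35, Rps4y2 and Rpl31 head the order, every filled point is to the right of 0, and Rpl3 is the lowest gene.

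The members were set beside other bright genes of the same arrays. Of the other 1295 names in the brightest 5%, 17% were called higher and 23% lower at day 2, with a median change of -0.03, whereas of the 75 members in that class 26.7% were higher and 0 lower, with a median of 0.15. At day 5 the same shares were 18.8% and 25.2% in other bright genes and 32% and 0 in members. Across the 83 members the mean change had a Pearson r of -0.23 with mean intensity and 0.07 with the GC percent of the probe, which describes genes that share samples and normalization. With the members left out of the reference distribution of the normalization, 30 were called at day 2 and 28 at day 5, where 9.45% and 10.3% of all gene names were higher.

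The largest lesion change belonged to Rpl35, a large subunit protein at the exit of the peptide tunnel, where the signal recognition particle docks. Its lowest, median and highest log2 intensities were 13.99, 14.12 and 14.25 in 8 control samples, 14.53, 14.68 and 14.85 at day 2 and 14.67, 14.83 and 14.89 at day 5. Every lesion sample was above every control sample. The change was 0.56 ± 0.06 at day 2 and 0.69 ± 0.06 at day 5 (adjusted p = 5.23e-07 and 1.86e-08), or 1.47-fold and 1.61-fold. In WT alone it was 0.53 ± 0.08 and 0.69 ± 0.08, and in KO alone 0.58 ± 0.08 and 0.69 ± 0.08, all called. Rpl31, another protein at the tunnel exit, rose in steps. It lay at 9.45, 9.58 and 9.76 in control samples, at 9.72, 9.88 and 10.13 at day 2 and at 10.03, 10.15 and 10.32 at day 5 (lowest, median and highest). All 8 day 5 samples were above all controls, and day 2 samples overlapped with the controls. The change was 0.30 ± 0.07 at day 2 and 0.59 ± 0.07 at day 5 (adjusted p = 0.00207 and 9.81e-07).

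In the small subunit the highest change was that of Rps4y2, the array's name for the mouse gene Rps4l, a relative of the X-linked Rps4x. Control samples had 10.89, 11.38 and 11.57, day 2 samples 11.61, 11.91 and 12.25 and day 5 samples 11.54, 11.76 and 12.03 (lowest, median and highest). The day 2 samples did not overlap with the controls, while the lowest day 5 sample was below the highest control. The change was 0.59 ± 0.09 at day 2 and 0.44 ± 0.09 at day 5 (adjusted p = 3.79e-05 and 0.000649). Rps3, which lines the channel where messenger RNA enters the 40S subunit, ran from 14.73 to 15.09 in control samples, from 15.14 to 15.43 at day 2 and 15.17 to 15.37 at day 5, with no overlap between control and lesion samples. It changed by 0.36 ± 0.06 at day 2 and 0.38 ± 0.06 at day 5 (adjusted p = 0.000233 and 8.03e-05). Rps15a, a protein of the 40S body, ran from 12.44 to 12.98 in controls, from 12.70 to 13.48 at day 2 and 12.91 to 13.29 at day 5, with overlap, and changed by 0.38 ± 0.10 at day 2 and 0.47 ± 0.10 at day 5 (adjusted p = 0.00618 and 0.000997). Its day 2 change was 0.32 without KO day 2 replicate 1, which was its highest day 2 sample. A second, dim Rps15a probe (well above background in 16 of 24 samples) did not rise, with -0.11 ± 0.15 at day 2 and -0.33 ± 0.15 at day 5, neither called. With the probes averaged, both Rps15a calls were lost (0.14 and 0.07, adjusted p = 0.3 and 0.668).

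Other members with calls at both days changed by less than 0.40. Rpl18, a protein on the solvent side of the 60S subunit, had controls at 12.81, 12.91 and 13.07 and day 2 and day 5 samples from 13.15 upwards (13.15, 13.17 and 13.54 and 13.21, 13.29 and 13.39), without overlap. It rose by 0.34 ± 0.06 at day 2 and 0.38 ± 0.06 at day 5 (adjusted p = 0.000441 and 8.97e-05). Rpl12, at the base of the stalk that recruits elongation factors, rose by 0.35 ± 0.07 at day 2 and 0.35 ± 0.07 at day 5, with control samples (15.03 to 15.50) overlapping with the lesion samples. Rpl24, which takes part in a bridge between the subunits, rose by 0.31 ± 0.05 at day 2 and 0.30 ± 0.05 at day 5, and its 8 control samples (up to 13.99) were all below the lesion samples (from 14.05). Rps26, a protein near the exit of the messenger RNA channel, rose by 0.28 ± 0.06 at day 2 and 0.35 ± 0.06 at day 5, also without overlap at either day. Rps2, Rps28, Rpl13, Rpl15, Rpl39 and Rps19bp1 were also called at both days, between 0.16 and 0.32. Counted over all members, all 8 day 2 samples were above all 8 controls for 7 genes (3.72% of all gene names) and all 8 day 5 samples for 8 genes (5.58%), and no member had all lesion samples below all controls, which 3.01% and 6.23% of all gene names had.

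**Figure D3:**
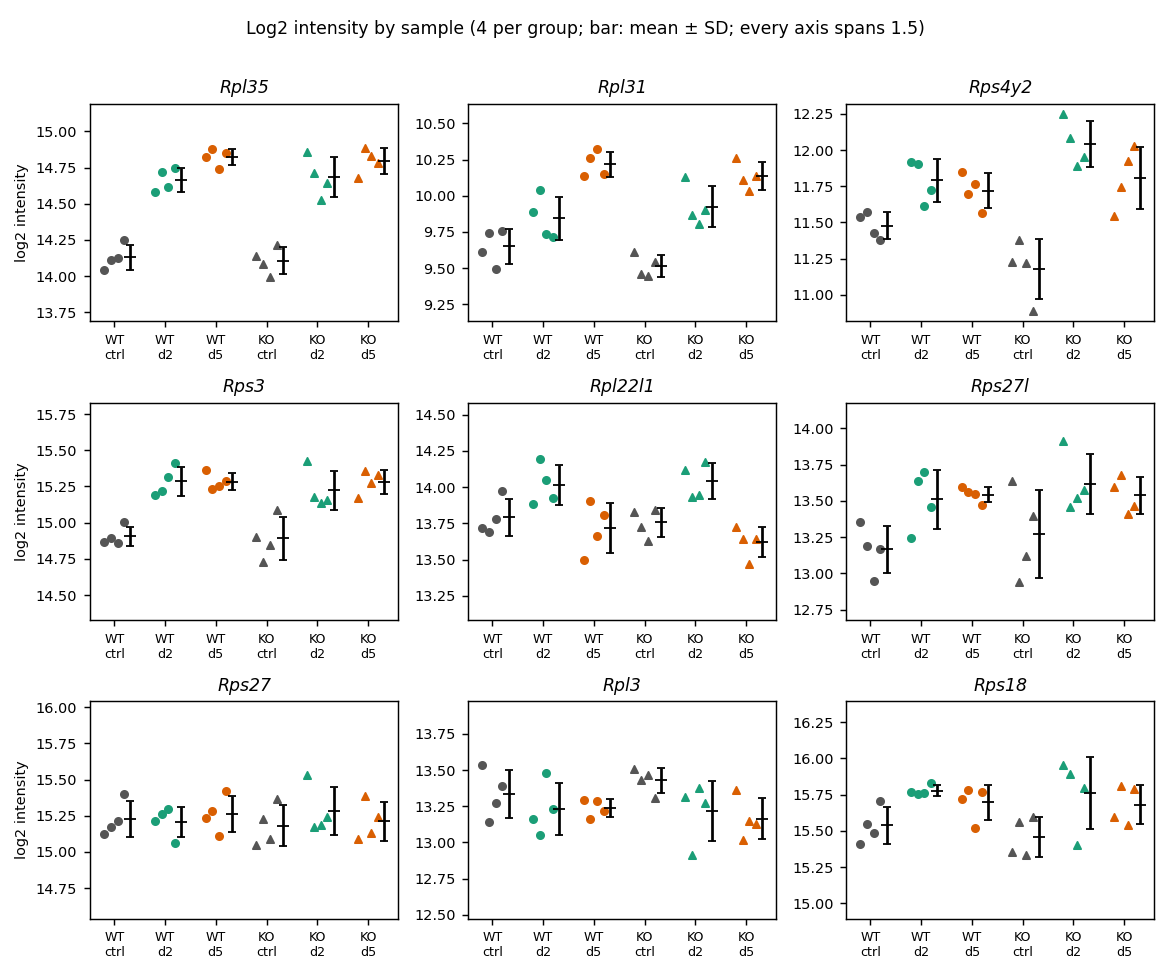
Log2 intensity of 9 members by sample (y axis, each panel spanning 1.5) in 6 groups of 4 (x axis), circles for WT and triangles for KO, grey for control, green for day 2 and orange for day 5, with the mean ± SD beside each group. Rpl35, Rpl31 and Rps3 lie higher at day 5 than in every control, Rpl22l1 is higher at day 2 than at day 5, and Rps27 and Rpl3 overlap between groups.

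The 2 subunits were described apart, without a test of their difference. Of 34 small subunit names, 13 were called at day 2 and 16 at day 5, and all 34 changes were positive at both days, with medians of 0.16 and 0.18. Of 51 large subunit names, 12 were called at each day and 46 were positive, with medians of 0.15 and 0.11. Genes called at day 5 alone included Rpl5, Rpl27a, Rpl29, Rpl41, Rps3a, Rps4x, Rps9, Rps10 and Rps24, with changes from 0.13 to 0.32. Genes called at day 2 alone included Rpl4, Rpl7a, Rpl22l1, Rpl36a, Rps13, Rps18 and Rps19, from 0.18 to 0.34. Both lists rest on the brightest probe. Other probes of Rpl7a, Rpl36a, Rps18 and Rps19 were called at day 5, and another probe of Rps24 was called at day 2. Being called at 1 day alone does not show a difference between days, which was tested on its own. Rpl5 and Rpl11, which bind MDM2 as part of the 5S particle when ribosome assembly fails, had 0.20 ± 0.08 at day 2 and 0.22 ± 0.08 at day 5 (adjusted p = 0.0481 at day 5) and 0.06 ± 0.06 at day 2 and 0.01 ± 0.06 at day 5 (not called).

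Between day 2 and day 5, as the mean over genotypes, 2 members passed, where 3.33% of all gene names did (2.32% higher and 1.01% lower). Rpl31 was higher at day 5 by 0.29 ± 0.07 (adjusted p = 0.0149). Rpl22l1, a paralog of the RNA-binding protein Rpl22, was lower at day 5, with a difference of -0.36 ± 0.07 (adjusted p = 0.00611). With probes averaged the difference was -0.17 (adjusted p = 0.358), and with median scaling -0.38 (adjusted p = 0.0764). A dim second probe differed by 0.02 ± 0.16 between the days. By the brightest probe, its lowest, median and highest values were 13.63, 13.75 and 13.97 in controls, 13.89, 13.998 and 14.20 at day 2 and 13.47, 13.66 and 13.90 at day 5. The groups overlapped, with 4 of 8 day 2 samples above the highest control. It was raised at day 2 (0.26 ± 0.07, adjusted p = 0.0137) and not called against control at day 5 (-0.10 ± 0.07, adjusted p = 0.372).

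Paralog pairs were compared by the change of each gene, not by level, and the brightest probes of the 7 pairs shared no more than 6 bases in a row. Rpl22 changed by 0.22 ± 0.09 at day 2 and 0.23 ± 0.09 at day 5, not called (adjusted p = 0.0808 and 0.0702). Its second probe went the other way, with -0.08 at day 2 and -0.05 at day 5, also not called. Rps27l, a p53-responsive paralog of Rps27, ran from 12.94 to 13.64 in controls and from 13.24 to 13.92 at day 2, and rose by 0.35 ± 0.10 at day 2 and 0.32 ± 0.10 at day 5 (adjusted p = 0.0152 and 0.0216). Rps27 ran from 15.05 to 15.40 in controls and from 15.06 to 15.53 at day 2 and changed by 0.04 ± 0.07 at day 2 and 0.03 ± 0.07 at day 5, not called. The annotated position of its brightest probe is on chromosome 9 in mm9, whereas RefSeq places the Rps27 start on chromosome 3. Rps4x, the X-linked partner of Rps4y2, changed by 0.13 ± 0.06 at day 2 and 0.18 ± 0.06 at day 5, called at day 5 (adjusted p = 0.0336) but not with probes averaged (adjusted p = 0.248). Rpl36a and Rpl36al changed by 0.23 ± 0.05 (called) and 0.17 ± 0.06 (adjusted p = 0.0704) at day 2. Rpl7l1, a nucleolar relative of Rpl7, changed by 0.00 ± 0.07 at day 2 and 0.01 ± 0.07 at day 5, and Rpl7 by 0.08 ± 0.06 at day 2 and 0.06 ± 0.06 at day 5, none of them called. Another Rpl7 probe was called at day 5, when its 3 probes changed by 0.06 to 0.29. Rpl39 changed by 0.20 ± 0.07 at day 2 and 0.24 ± 0.07 at day 5, called at both days, beside the dim Rpl39l. The difference between partners in a pair was not tested.

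Several members serve as reference genes in PCR, and their stability was read from the same fit. Rps18, in the head of the 40S subunit, had controls at 15.33, 15.52 and 15.71 and day 2 samples at 15.41, 15.78 and 15.96. The groups overlapped, with 7 of 8 day 2 samples above every control, and the change was 0.27 ± 0.08 at day 2 (adjusted p = 0.0169) and 0.19 ± 0.08 at day 5 (adjusted p = 0.0957). A second Rps18 probe was called at both days, with 0.28 at day 2 and 0.27 at day 5. Rpl4 changed by 0.18 ± 0.06 at day 2 (adjusted p = 0.039) and 0.14 ± 0.06 at day 5, and leaving out KO day 2 replicate 1 ended its day 2 call (adjusted p = 0.0891). By the brightest probe, Rpl13a, Rpl19, Rpl27, Rps29, Rplp0 and Rplp2 were not called at either day. For Rpl27 the change was 0.07 ± 0.04 (95% interval -0.02 to 0.16) at day 2 and -0.01 ± 0.04 (-0.10 to 0.08) at day 5. For Rpl19 the intervals were 0.00 to 0.21 and -0.04 to 0.18.

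The acidic stalk of the 60S subunit, formed by RPLP0 with dimers of RPLP1 and RPLP2, gave mixed calls between probes. By the brightest probe Rplp0 changed by 0.20 ± 0.07 at day 2 and 0.15 ± 0.07 at day 5 (adjusted p = 0.0581 and 0.173). Its other probes were called at both days, with 0.27 and 0.36 at day 2 and 0.31 and 0.43 at day 5. Rplp1 changed by 0.21 ± 0.09 at day 2 and 0.04 ± 0.09 at day 5 and Rplp2 by 0.13 ± 0.06 at day 2 and 0.03 ± 0.06 at day 5, neither called, and a dimmer second probe of Rplp2 was called at day 2 (0.50 ± 0.14). Rpsa, which is both a 40S protein and the precursor of a laminin receptor, ran from 11.44 to 11.91 in controls, from 11.74 to 12.32 at day 2 and 11.72 to 12.16 at day 5, and rose by 0.27 ± 0.09 at day 2 and 0.33 ± 0.09 at day 5 (adjusted p = 0.0286 and 0.0091). Leaving out KO day 2 replicate 1 ended the day 2 call (adjusted p = 0.0675), and averaging its probes ended the day 5 call (0.18, adjusted p = 0.131). The lowest changes among genes above background were those of Rpl3, a protein close to the peptidyl transferase centre. Its samples ran from 13.14 to 13.53 in controls, 12.92 to 13.48 at day 2 and 13.02 to 13.36 at day 5, with overlap, and the change was -0.16 ± 0.08 at day 2 and -0.18 ± 0.08 at day 5 (adjusted p = 0.188 and 0.127). Rpl3l, listed as dim above, had -0.53 ± 0.25 at day 2 (adjusted p = 0.15).

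More than 1 probe was present for 46 genes, and no gene had probes called in opposite directions. Over all 142 probes, 40 were called higher at day 2 and 50 at day 5, where 9.26% and 9.66% of all probes were, and 0 were called lower. With any probe counted, 29 and 36 genes were called in place of 25 and 28. Such a count can grow with the number of probes of a gene, and its share over all gene names was not computed. The 2 probes of Rpl31 both rose at day 5, by 0.59 and 0.44. Its second probe shares 48 bases, on the opposite strand, with a probe of Tbc1d8, the neighbouring gene that overlaps with Rpl31 by 417 bases in RefSeq. That Tbc1d8 probe was lower at day 2 (-0.77 ± 0.22, adjusted p = 0.016) and had -0.51 ± 0.22 at day 5. The brightest probes of Rpl35 and Rpl18 also share bases with probes of unnamed transcripts, and their letters are given because both genes were called at both days under all 41 alternative settings. In capitals is the stretch shared with the other probe, and positions follow the mm9 annotation of the array, each spanning more than the 60 bases of the probe.
Rpl35 (chr2:38857243-38859643, minus strand): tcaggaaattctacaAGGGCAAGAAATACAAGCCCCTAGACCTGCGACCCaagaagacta
Rpl18 (chr7:52974958-52975300, plus strand): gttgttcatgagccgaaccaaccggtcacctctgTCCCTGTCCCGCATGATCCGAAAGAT
The probe that matches Rpl35 over 35 bases on the opposite strand changed by 0.47 ± 0.10 at day 2 and 0.59 ± 0.10 at day 5, called at both days. The probe sharing 26 bases with Rpl18 on the same strand changed by 0.30 ± 0.07 and 0.33 ± 0.07, also called. In all, 16 of 142 member probes, among them the brightest probes of 9 genes, shared at least 20 bases with a probe of another gene name, and 3 of the 25 day 2 calls and 4 of the 28 day 5 calls came from such probes. Member probes were compared only with other probes of the array. Bases shared with genes or pseudogenes that have no probe are not counted.

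Within 1 genotype the test had less precision. In WT, 4 members were called at day 2 (5.16% of all gene names higher) and 9 at day 5 (6.43%). In KO, 13 were called at day 2 (5.54%) and 10 at day 5 (6.14%), all higher. Rpl35, Rpl18, Rpl24 and Rps3 were called in both genotypes at day 2. Without KO day 2 replicate 1, the KO count at day 2 was 7. The median change was 0.12 in WT and 0.18 in KO at day 2, and 0.15 and 0.14 at day 5. These counts do not test a difference between genotypes.

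To ask whether loss of Nfil3 altered these genes, KO was compared with WT at each time. By limma's adjusted p, 0 of 85 members passed in the uninjured state or at either day after the lesion, where 0%, 0.0146% and 0.0109% of all gene names did. The deleted gene Nfil3 itself was called at each lesion day but not in control DRGs. There KO minus WT was -3.98 ± 0.81 by its brightest probe and -3.22 ± 0.56 by the other (adjusted p = 0.253). The 0 calls therefore do not show that no genotype difference is present. At an unadjusted p below 0.05, 1 member passed in uninjured ganglia, 1 at day 2 and 0 at day 5, against 1.7%, 3.86% and 2.34% of all gene names. The median difference, KO minus WT, was -0.02 without lesion, 0.06 at day 2 and -0.01 at day 5. Over the alternatives that did not leave out single samples, the first ran from -0.02 to 0.02 and the last from -0.09 to 0.02. Leaving out each sample gave -0.05 to 0.03 without lesion and -0.03 to -0.002 at day 5. At day 2, 69 of 85 genes were higher in KO, and without KO day 2 replicate 1 this was 46 of 85, with a median of 0.0036. In the same day 2 comparison all 10 skeletal muscle markers were higher in KO (median 1.24), and all 5 erythroid (median -0.93), all 7 myelinating Schwann cell (median -0.52) and 15 of 16 macrophage markers (median -0.21) were lower, none called. Their part in the ribosomal protein values was not tested. For Rpl35 the difference was -0.02 without lesion (95% interval -0.19 to 0.14), 0.02 at day 2 (-0.15 to 0.19) and -0.03 at day 5 (-0.20 to 0.14).

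The time by genotype interaction passed for 0 members by limma's adjusted p, as for 0 of all gene names. Nfil3 itself also failed it by both probes, so 0 calls do not show that no interaction is present. At an unadjusted p below 0.05 it passed for Rps4y2 alone, against 2.11% of all gene names. Rps4y2 was also the single gene behind the unadjusted counts in control and day 2 DRGs. Its values were 11.54, 11.57, 11.42 and 11.38 in WT control and 11.23, 11.38, 11.22 and 10.89 in KO control, which did not overlap, although the highest KO and the lowest WT sample were level to 2 decimals. At day 2 they were 11.92, 11.90, 11.61 and 11.73 in WT and 12.25, 12.08, 11.89 and 11.95 in KO, which overlapped. At day 5 WT samples had 11.85, 11.70, 11.77 and 11.57 and KO samples 11.54, 11.74, 11.93 and 12.03. KO minus WT was -0.30 ± 0.12 without lesion, 0.25 ± 0.12 at day 2 and 0.09 ± 0.12 at day 5. The day 2 lesion change was 0.31 ± 0.12 in WT (adjusted p = 0.117) and 0.87 ± 0.12 in KO (adjusted p = 6.27e-05), a difference of 0.55 ± 0.17 that failed the correction (adjusted p = 1.00). The next smallest p-values belonged to Rpl27a and Rps4x in control DRGs, Rpl14 and Rpl7l1 at day 2, and Rpl10a and Rpl3l at day 5, and none was below 0.05.

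**Figure D4:**
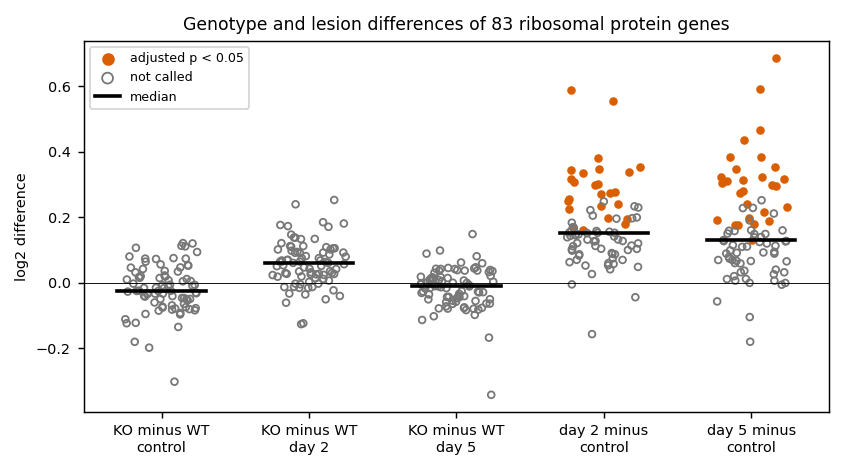
Log2 differences (y axis) of 83 ribosomal protein genes for KO minus WT in control, day 2 and day 5 DRGs and for the lesion at day 2 and day 5 (x axis), each point a gene, orange where the adjusted p was below 0.05, black bars the medians. Orange points occur in the lesion comparisons alone, above 0.

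Other genes of protein synthesis were described by lists. Of 3 ribosomal proteins with other names on the array none was called, and Fau and Gnb2l1 changed by 0.08 and 0.13 at day 2. Mitochondrial ribosomal protein genes (Mrpl and Mrps), which serve the separate ribosome of mitochondria, had 3 higher and 11 lower of 76 at day 2 and 3 higher and 13 lower at day 5, with medians of -0.06 and -0.07. Their lower shares, 14.5% and 17.1%, lay near the 12.9% and 13% of all gene names and below the 21.1% and 21.9% of names above background, and their higher share was 3.95% at each day. Mrpl42 (-0.43 ± 0.09) and Mrps36 (-0.37 ± 0.06) fell at day 2, and Mrpl9 rose (0.27 ± 0.07). Of 86 ribosome biogenesis genes, 21 were higher and 1 lower at day 2, and 16 higher and 5 lower at day 5, with medians of 0.09 and 0.08. Surf6, a nucleolar factor, rose by 0.73 ± 0.09, Eif6, which keeps new 60S subunits from joining too early, by 0.68 ± 0.08, and the processing factor Rrp12 by 0.64 ± 0.09 at day 2. Taf1a, a subunit of the RNA polymerase I factor SL1, fell by 0.25 ± 0.07 at day 2 and by 0.43 ± 0.07 at day 5.

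Of 50 translation initiation genes, 15 were higher and 3 lower at day 2, and 16 and 4 at day 5. Eif4ebp1, whose product holds back the cap-binding protein until mTOR phosphorylates it, rose by 1.45 ± 0.10 at day 2 and 1.61 ± 0.10 at day 5, more than any member, and Eif3b rose by 0.87 ± 0.08 and 0.70 ± 0.08. Of 14 elongation genes, 6 were higher and 2 lower at day 2, and 6 and 3 at day 5. Eef1b2, the exchange factor of eEF1A, rose by 0.78 ± 0.08 at day 2, whereas Eef1a2, the neuronal form of eEF1A, fell by 0.43 ± 0.08. Among 18 other TOP messenger RNAs, 3 were higher and 1 lower at day 2, and 4 and 0 at day 5. Of 21 genes of growth control of ribosome production, 3 were higher and 7 lower at each day. Myc, a transcription factor that drives ribosome production, rose by 0.50 ± 0.07 at day 2 and 0.29 ± 0.07 at day 5, and Larp1, which represses TOP messenger RNAs, fell by 0.25 ± 0.06 and 0.35 ± 0.06. Tsc1 and Mtor were also lower at day 2, by 0.38 ± 0.08 and 0.37 ± 0.10.

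**Figure D5:**
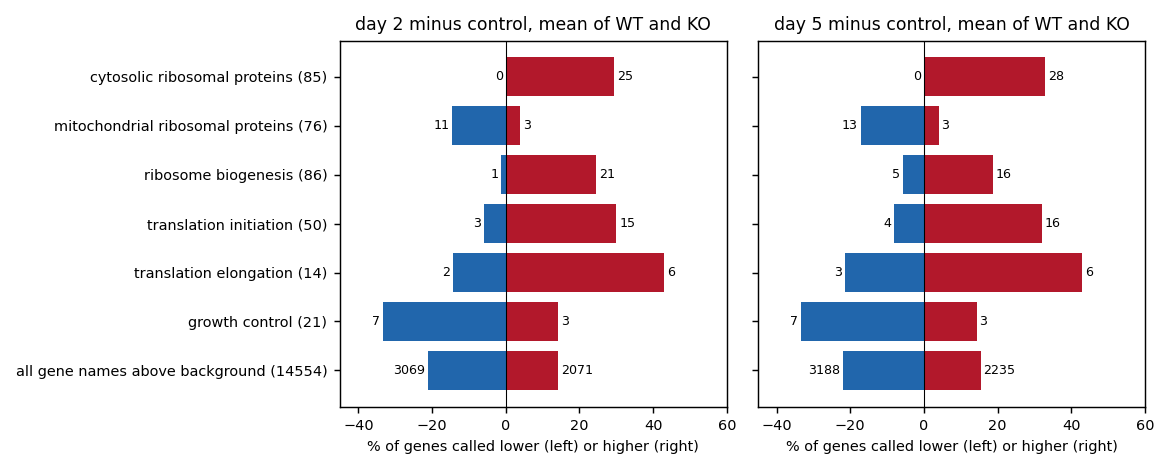
Percent of genes in each list (y axis, number on the array in parentheses) called higher (red, right) or lower (blue, left) at day 2 and day 5 against control (x axis), with the number of genes at each bar end. Cytosolic ribosomal proteins have 25 and 28 genes on the right and 0 on the left, and mitochondrial ribosomal proteins have 11 and 13 on the left, where all gene names also have more lower than higher calls.

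Markers of cell types moved in the same comparisons. All 16 macrophage markers were positive, 10 called higher at day 2 and 16 at day 5, with medians of 0.66 and 1.68. Their summed log2 level ran from 13.18 to 13.92 in controls, from 13.05 to 14.61 at day 2 and from 14.75 to 15.35 at day 5. Of 15 sensory neuron markers, 9 were lower at day 2 (median -0.40) and 11 at day 5 (median -0.62), with 0 and 1 higher. The summed neuron marker level was 18.69 to 19.16 in controls, 18.38 to 18.73 at day 2 and 18.17 to 18.67 at day 5. Of 9 proliferation markers, 5 were higher at day 2 and 4 at day 5. Of 8 satellite glia markers, 2 were higher and 4 lower at day 2 and 2 and 2 at day 5, with medians of -0.21 and 0.00. All 7 myelinating Schwann cell markers were positive at both days (medians 0.45 and 0.16), with 1 called at day 2 and 0 at day 5. Erythroid markers were positive in 5 of 5 at day 2 and 4 of 5 at day 5 (medians 0.69 and 0.09) with 0 called, and their summed log2 level ran from 14.88 to 16.60 in controls and from 14.73 to 17.73 at day 2. Skeletal muscle markers had medians of 0.54 and 0.67, with 1 of 10 called lower at day 2, and summed levels from 10.22 to 12.85 in controls, 10.13 to 13.54 at day 2 and 10.32 to 14.70 at day 5. The median change of the ribosomal protein genes was 0.15 at day 2 and 0.13 at day 5. The part of these cell types in the ribosomal protein changes was not tested.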

How the data were processed

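RNA of 24 DRG samples was hybridized to 12 two-dye 44K Agilent arrays on 3 slides, with 2 samples of each group in Cy3 and 2 in Cy5. The deposited files hold the authors' scanner intensity values per spot (Agilent Feature Extraction 10.7.3.1, array annotation in mm9), not yet normalized. The mean foreground was corrected with the median background by the Edwards method, the 24 channels were quantile normalized as single channels, outlier spots (417 probe values) and control spots were left out, and spots of a probe were averaged on the log2 scale (limma 3.58.1, statmod 1.5.0, R 4.3.3). One mean per group was fitted by limma to all 41174 probes, with Benjamini-Hochberg adjustment and a threshold of 0.05. The lesion change is the mean of the WT and KO changes. A gene is given by its brightest probe. Arrays give no read depth, and precision is limited by 4 samples per group. The steps were tested on simulated data. Named were the 6 highest and 6 lowest changes among called members at each day, paralog pairs, reference genes, Rpsa and the stalk genes, the 3 smallest genotype p-values per time, members that differed between days, and from other lists up to 3 changes in each direction. Calca, Nefl, Rpl5, Rpl11, Rps26, Rpl24, Larp1, Tsc1, Mtor and members listed by their calls were named after their values were seen. The members and lists were chosen with earlier results of these data known. Promoter sequences are from RefSeq. Alternatives covered background, normalization, probe choice, filter, dye, slide, array, replicate block and leaving out each sample. Values of some genes are not reported here.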

Additional observations from a re-analysis of the deposited data

Results flagged for a closer look

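In 9 of 222 combinations of a gene and a group, 1 sample lay far from the other 3 of its group (Dixon's test), and chance gives about 1 in 20. KO day 2 replicate 1 was the highest of its group for Rpl18 (13.54), Rpl19 (15.41), Rpl26 (15.58), Rps15a (13.48), Rps3 (15.43) and Rpsa (12.32), on the log2 scale. Rps4x was set apart in WT day 2 replicate 3 (15.12), Rpl7 in KO day 5 replicate 3 (15.21), and the dim Rpl3l in WT control replicate 1 (4.85). No cause was tested.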

How the results depend on the processing

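No single-gene change examined under the alternatives was reversed, but the members' median changed sign for KO minus WT in control DRGs (-0.02 to 0.02) and at day 5 (-0.09 to 0.02) and for day 5 minus day 2 (-0.02 to 0.04), where it was near 0. These ranges do not hold the fits without 1 sample, which gave -0.05 to 0.03, -0.03 to -0.002 and -0.03 to 0.02 in the same order. At day 2, 38 members (25 in the reported setting) were called with no background correction and with normexp, 43 with the processed signals and 9 with median scaling, and at day 5 (28 reported) 44 with the processed signals and 8 with median scaling. Median scaling called 7.08% of all gene names higher at day 2 and 7.44% at day 5. In WT, day 2 gave 9 without correction and with normexp, 8 with processed signals and 1 with median scaling (4 reported), and day 5 gave 16, 16 with normexp, 3 with median scaling and 19 with slide as a block (9 reported). In KO, day 2 gave 20 without correction and with normexp and 2 with median scaling (13 reported), and day 5 gave 16 with processed signals and 3 with median scaling (10 reported). For counts within 1 genotype under the alternatives, the share of all gene names was not computed. From day 2 to day 5, 0 passed with median scaling and 1 with probes averaged (2 reported). Leaving out each sample gave 17 to 34 at day 2, 18 to 30 at day 5, 2 to 5 and 7 to 10 in WT, 7 to 19 and 7 to 12 in KO, and 0 for each genotype comparison. Over the same fits 8.33% to 10.2% of all gene names were called higher at day 2 and 9.33% to 10.4% at day 5. The lowest day 5 count, 18, came without WT control replicate 3 or without KO control replicate 2, the lowest WT day 2 count, 2, without WT control replicate 3 or WT day 2 replicate 3, and the lowest KO day 2 count, 7, without KO day 2 replicate 1. Leaving out both samples of 1 array, chosen after seeing the data, gave 15 at day 2 (7.94% of all gene names higher) and 6 in KO at day 2. With slide as a block 1 member was lower at day 5, where 15.5% of all gene names were. The causes were not tested.

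Replicate numbers did not pair the samples (mean correlation 0.05 over 60 pairs, 9 of 24 samples closest to their own number), and the replicate block gave 25 calls at day 2 and 29 at day 5. Samples of 1 array correlated more (0.39 over 12 pairs). The 6 members called at both days under all 41 settings were Rpl18, Rpl24, Rpl31, Rpl35, Rps3 and Rps4y2. No share of all gene names was computed for this count.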
